A study of Mus musculus with 23 samples.

Results

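A set of 10 heat shock and chaperone genes was followed through single-cell RNA sequencing of mice with changed Stat5b, out of 32285 genes counted. They were Hspa1a, Hspa1b and Hspa8 (HSP70 proteins), Dnaja1 and Dnajb1 (J-domain partners of HSP70), Hsph1 (a nucleotide exchange factor of HSP70), Hsp90aa1 and Hsp90ab1 (HSP90 proteins), and Hspd1 and Hspe1 (the mitochondrial chaperonin and its lid). They were found by symbol. They were chosen because they stood higher in the Y665F than in the WT spleen library, so that contrast is described here without a test.

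All mice were labelled C57BL/6, which the study's methods give as C57BL/6N, and were 2 months old. STAT5B Y665F and STAT5B Y665H replace a tyrosine of the SH2 domain (Y665) by phenylalanine or histidine, and because the study edited the germline, every cell of a mutant mouse carries the change. Lymph node (LN) gave 2 WT, 3 heterozygous Y665F (het) and 2 homozygous Y665F (homo) libraries. Spleen gave 1 library each of WT, Y665H and Y665F, from CD45+ cells of several mice combined. Bone marrow (BM) gave 2 libraries each of WT, Y665H and Y665F. The labels give the number of mutant alleles for LN only and do not say whether replicate libraries came from separate mice, so p-values measure the spread between libraries, which may be technical. A change of 1 codon leaves no mark in gene counts, so the genotype labels could not be checked from these tables.

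Heat shock proteins hold other proteins in a folded or foldable state. Under heat, oxidative stress or damage to proteins, heat shock factor 1 trimers bind heat shock elements, repeats of nGAAn in alternating orientation, and raise the transcription of inducible genes, with Hspa1a and Hspa1b among the most inducible and Hspa8 largely constitutive. The same genes are known to respond to the dissociation and sorting of tissue before single-cell sequencing.

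The counts are UMIs, which mark single captured RNA molecules, and levels are given as CPM, UMIs scaled to the usual common total within a class and library. After filtering, 4434 to 8537 cells per LN library, 4826 to 7504 per spleen library and 4093 to 15910 per BM library were kept. Their summed UMIs ran from 2234807 to 15209625 in LN, from 34335762 to 42358745 in spleen and from 15596169 to 45422822 in BM. The LN libraries het 3 and homo 1 stood apart as shallow, with medians of 406 and 430 UMIs per cell. Their cells without a class made up 65.5% and 64.8%. At most 336 cell barcodes were shared by any 2 libraries, and never more than 2.52% of the smaller library. The ratio of T-cell receptor beta V to C segment UMIs was 0.0274 to 0.030 in spleen, 3.72 to 5.93 in LN and 0.848 to 9.11 in BM. Spleen transcripts were therefore read at another end than LN transcripts, and levels are compared only within a tissue. Cells were put into classes by markers of each type (T, CD8, CD4, Treg, B, NK, monocyte-macrophage, neutrophil and plasma in LN and spleen, with progenitor classes in BM), and a class is named for its markers only. In spleen the T markers Cd3d, Cd3e and Cd3g summed to 1796 to 2023 CPM in the CD8 T class and to 25 to 42.6 CPM in the B class.

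Hspa1a (chr17:34969190-34972156) and Hspa1b (chr17:34956436-34959238) are neighbouring genes of a single exon on the minus strand of GRCm38. Of the 31-base words of the transcripts, 65.4% of Hspa1a and 68.0% of Hspa1b also occurred in another gene, mostly in each other. The share was 80.7% in the first 300 windows of each, and 0% and 2.80% in the last 500. Reads that fit both genes are not counted by Cell Ranger, so the split between them is uncertain where the 5′ end is read, and their sum is given as "the pair". The sum lacks these reads as well, so it may be too low where the 5′ end is read. How much was lost was not tested. Words shared with pseudogenes and other genes made up 77.2% of Hspa8, 62.9% of Hsp90aa1, 55.8% of Hspd1 and 48.1% of Hspe1. In the first 300 and the last 500 windows the shares were 0% and 86.2% for Hspa8, and 63.3% and 0.8% for Hsp90aa1. They were 17.3% and 7.0% for Hspd1, and 18.7% and 70.4% for Hspe1. How uncertain these counts are therefore depends on the end that is read. Over the whole transcript the shares were 20.7% in Dnaja1, 16.6% in Hsp90ab1, 1.08% in Dnajb1 and 0% in Hsph1.

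The promoters of the pair are shown because they carry the same candidate heat shock element. The 250 bases before each start, from the RefSeq table of GRCm38.p6 and written 5′ to 3′ on the minus strand, are chr17:34972157-34972406 for Hspa1a and chr17:34959239-34959488 for Hspa1b. Capitals mark the match to GAANNTTC, which is its own reverse complement.
Hspa1a: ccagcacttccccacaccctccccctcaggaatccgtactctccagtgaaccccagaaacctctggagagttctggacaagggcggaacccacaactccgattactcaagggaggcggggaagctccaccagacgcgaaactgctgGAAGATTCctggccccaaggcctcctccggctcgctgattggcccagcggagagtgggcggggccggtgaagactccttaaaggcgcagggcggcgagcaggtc
Hspa1b: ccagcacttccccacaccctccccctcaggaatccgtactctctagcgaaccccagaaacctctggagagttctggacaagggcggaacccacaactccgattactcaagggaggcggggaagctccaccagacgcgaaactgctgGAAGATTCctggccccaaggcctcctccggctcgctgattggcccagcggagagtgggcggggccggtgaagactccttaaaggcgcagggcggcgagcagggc
Both hold the match at -104 to -97. The windows were 98.8% identical and differed at 3 of 250 bases, C207T, T204C and T2G, with positions counted upstream from the start and the Hspa1a base first. GAANNTTC occurred in 6.69% of 32851 promoters of the same length, so the match alone does not single these genes out. Hspd1 (chr1:55077835-55088243) and Hspe1 (chr1:55088132-55091307) lie head to head on chromosome 1 and share a stretch of 18 bases, at -89 to -72 of Hspe1, in which 3 matches to GAANNTTC or TTCNNGAA overlap. These include matches to the motif of 3 alternating units, searched from either unit first, which occurred in 0.466% of promoters. Hsph1 and Dnaja1 each had a single 2-unit match in at least 1 of their promoters, where either 2-unit motif occurred in 12.8%. The Dnajb1 promoters had no match. Promoter rows were found for 7 of the 10 genes, and Hsp90aa1, Hsp90ab1 and Hspa8 had none.

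The first question was whether the pair stood higher in all classes of the mutant spleen libraries or in some. In the spleen CD8 T class, the pair was at 1.06 CPM in WT, 18.9 CPM for Y665H and 24.6 CPM for Y665F. The ratios to WT were 17.8 for Y665H (95% interval 10.2 to 34.1) and 23.2 for Y665F (13.4 to 44.0). All intervals for spleen are exact and cover counting error only, since each genotype has 1 library and no replicate check was possible. They take each UMI as independent, although several UMIs of the pair often lay in 1 cell. In the B class, which does not share the lineage of CD8 T cells, the pair was at 2.59 CPM in WT, 63.1 CPM for Y665H and 62.2 CPM for Y665F. The ratios there were 24.4 (15.3 to 41.5) and 24.0 (14.8 to 41.3). The pair was thus as far above WT in B as in CD8 T, within counting error, in both mutant libraries.

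In CD4 T the pair was at 2.05 CPM in WT, 28.3 CPM for Y665H and 42.7 CPM for Y665F, with ratios of 13.8 (8.33 to 24.5) and 20.8 (12.5 to 37.1). In Treg it was at 1.59 CPM (2 UMIs) in WT, 16.1 CPM for Y665H and 25.6 CPM for Y665F, with ratios of 10.1 (2.45 to 89.7) and 16.1 (4.25 to 136). In NK it was listed at 0 in WT, and was at 28.5 CPM for Y665H and 9.49 CPM for Y665F, at least 14.6-fold and at least 4.87-fold higher than a floor of 3 UMIs in the WT class. The 4 T and B classes stood above WT in both mutant libraries, and NK did so in Y665H. The 8 UMIs of the pair in Y665F NK lay in 2 of 168 cells, 6 of them in 1 cell, so that class was not separated from WT by its cells.

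In monocyte-macrophage the pair was already at 52.5 CPM in WT, the highest of the WT classes, and reached 243 CPM for Y665H and 161 CPM for Y665F. The ratios, 4.63 (3.26 to 6.77) and 3.07 (2.06 to 4.68), were smaller than the values in B and CD8 T, which is a description only. They rested on few cells, since 3 cells held 47.1% of the 34 UMIs of the pair in WT and 8 cells held 95.9% of the 98 in Y665F. Markers of other lineages moved with this class as well, with GMP markers at 1.54 CPM in WT, 393 CPM for Y665H and 1403 CPM for Y665F, neutrophil markers at 95.8, 544 and 1387 CPM, and hemoglobin markers at 12.4, 2164 and 6.58 CPM. Their part in the level of the pair was not tested. In neutrophils the pair was listed at 0 in WT (86 cells) and was at 5.15 CPM for Y665H (12 UMIs), which is under the floor of the WT class, so no fold is given. In Y665F neutrophils it was at 29.4 CPM, at least 2.70-fold above that floor. That level rested on few cells, since 6 of 259 cells held 83.8% of the 80 UMIs of the pair. The Y665F neutrophil class also differed in other ways. Its GMP markers summed to 2914 CPM beside 7.26 CPM in WT and 9.44 CPM for Y665H, its median was 10032 UMIs per cell beside 2918 and 3200, and 44.4% of all genes lay past 2-fold from WT in either direction. The part of these differences in the level of the pair was not tested. In plasma cells it was at 1.39 CPM in WT (1 UMI), 15.6 CPM for Y665H (17 UMIs) and 12.4 CPM for Y665F (5 UMIs in a class of 22 cells). The Y665F interval there, 4.04 to 29.0 CPM, overlapped that of WT, 0.0352 to 7.74 CPM.

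**Figure D1:**
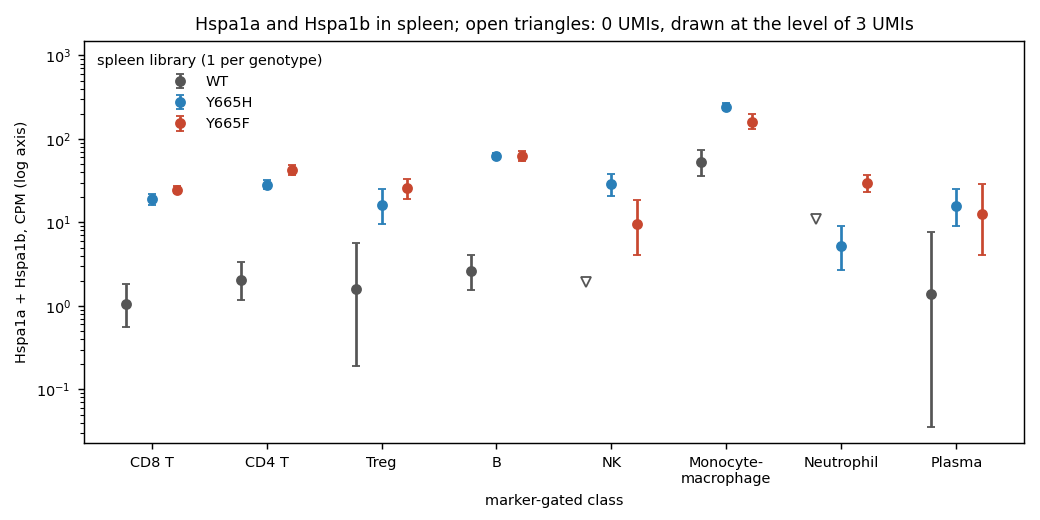
Summed level of Hspa1a and Hspa1b (CPM, log axis) in 8 marker-gated spleen classes of the WT, Y665H and Y665F libraries, 1 library per genotype. Bars are exact 95% Poisson intervals for counting error, and open triangles are classes with 0 UMIs, drawn at the level of 3 UMIs. WT lies lowest in each lymphoid class, but its interval overlaps that of Y665F in plasma cells, and the Y665F NK level rests on 8 UMIs. Monocyte-macrophage has the highest level in all 3 libraries, 52.5 CPM in WT and 243 CPM for Y665H.

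The difference was also seen in the share of cells with a UMI of the pair, after each cell was thinned to 2000 UMIs. In B it was 0.432% in WT, 7.88% in Y665H and 7.82% in Y665F. In CD8 T it was 0.179%, 3.37% and 3.74%. In monocyte-macrophage it was 7.46%, 25.4% and 16.3%, where the Y665F interval (7.32% to 29.7%) overlapped that of WT (2.47% to 16.6%). In NK it was 0% (up to 1.19%), 4.51% (2.43% to 7.60%) and 0.599% (0.0152% to 3.29%), so Y665F overlapped WT. Neutrophils had the lowest nonzero share in Y665H, 1.17%, with 1.20% in Y665F and 0% of 75 cells in WT, where a count of 0 allows a share of cells with a UMI of up to 4.0% by the floor of 3 counts. Cells too shallow to thin were few, 239 of 6489 in WT, 310 of 7504 in Y665H and 147 of 4826 in Y665F, and without thinning the shares over all cells were 0.971%, 10.4% and 10.3%. Cells with 5 or more UMIs held 15.7% of the pair's UMIs in WT, 41.7% in Y665H and 35.8% in Y665F. The classes differed widely in this, with 5.82% in CD8 T, 34.4% in B and 81.4% in monocyte-macrophage in Y665H, and 28.6%, 31.8% and 95.9% in Y665F. Most cells of the mutant libraries had no UMI of the pair at this depth.

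The other 8 genes differed from WT by less than the pair did in CD8 T and B. Their summed level in CD8 T was 1.16 times WT in Y665H and 1.27 times WT in Y665F, and in B it was 1.26 and 1.40 times WT. Among the single genes in the T and B classes, Hsph1 had the highest ratio, 2.22 in Y665F Treg (1.59 to 3.14). In CD8 T, Hsph1 was at 54.6 CPM in WT, 58.8 CPM for Y665H and 95.5 CPM for Y665F. Its ratio was 1.75 in Y665F (1.60 to 1.92) and 1.08 in Y665H (0.962 to 1.20), so that Y665H did not separate from WT by counting error. Hspa8, the constitutive HSP70, was at 776 CPM in WT, 929 CPM for Y665H and 1100.2 CPM for Y665F in CD8 T, and at 563, 686 and 814 CPM in B.

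Dnaja1 was at 244 CPM in WT, 302 CPM for Y665H and 394 CPM for Y665F in B. Dnajb1 had its higher level in Y665H, with 40.7, 59.1 and 49.8 CPM in B. The HSP90 genes followed the same order as Hspa8 in B, with 380, 459 and 568 CPM for Hsp90aa1, and 1337, 1729 and 1767 CPM for Hsp90ab1. The mitochondrial Hspd1 was at 124, 160 and 166 CPM and Hspe1 at 277, 338 and 361 CPM. All 10 genes stood above WT in both mutant libraries in B, in CD8 T and over all cells, beside 37.6%, 30.9% and 30.4% of all genes in Y665F and 47.0%, 50.5% and 49.6% in Y665H. The genes were selected on the level in Y665F over this 1 WT library, against which Y665H is set as well, so neither count is support for a difference. This was not so in every class. In plasma cells 3 of 8 genes with enough UMIs were higher in Y665F (46.0% of all genes) and 4 of 9 in Y665H (46.4%). The summed level of the 8 genes other than the pair was 1.01 times WT (0.911 to 1.13) and 0.967 times WT (0.891 to 1.05). In neutrophils, with the differences in the Y665F class given above, 8 of 10 were higher in Y665F (50.1%) and 5 of 7 in Y665H (47.5%). The ratios for the 8 were 1.42 (1.25 to 1.62) and 1.06 (0.934 to 1.22). In NK 8 of 8 were higher in Y665F (41.0%) and 9 of 10 in Y665H (45.9%). The ratios for the 8 were 1.42 (1.36 to 1.49) and 1.29 (1.24 to 1.34). Over all cells, 2 of the 10 (the pair) were over 2-fold higher in Y665F, where 2.6% of all genes were, and 2 of the 10 in Y665H, where 2.64% were. In CD8 T the background was 0.972% and 0.54%, and in B 1.32% and 0.994%, again with the pair only. In Y665H Treg it was 1 of 9 (3.99% of all genes), which was Hspa1b. In Y665F Treg it was 3 of 10 (3.18%), not limited to the pair. Monocyte-macrophage had 4 of 10 in Y665F (9.18%) and 3 of 10 in Y665H (7.6%), also not limited to the pair. Hsph1 there was at 23.2 CPM in WT, 57.2 CPM for Y665H and 51.0 CPM for Y665F. In neutrophils the count was 6 of 10 in Y665F (24.8%) and 0 of 7 in Y665H (12.6%).

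**Figure D2:**
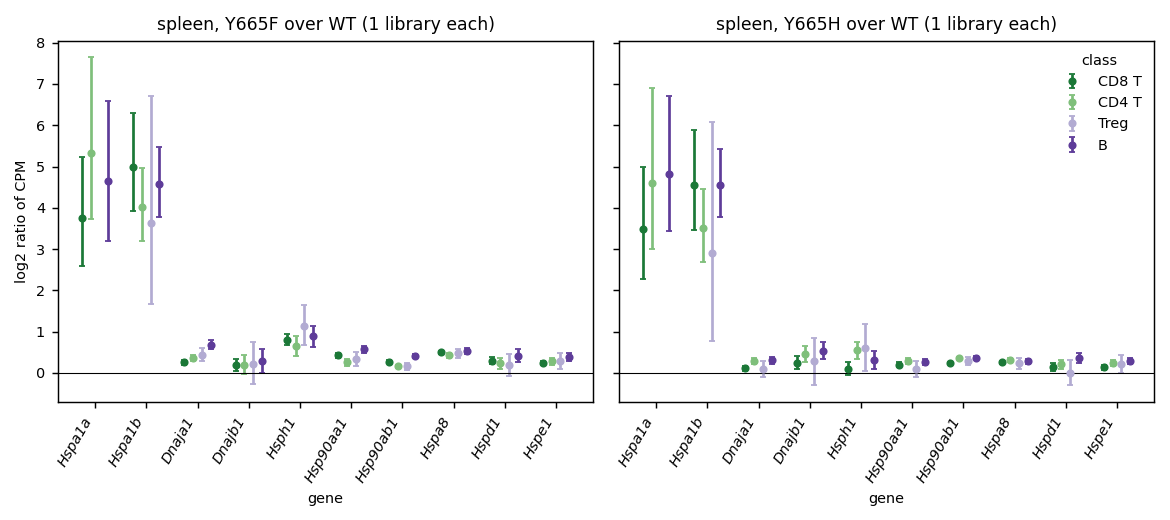
Log2 ratio of CPM to WT of each of the 10 genes in the spleen CD8 T, CD4 T, Treg and B classes, for the Y665F and the Y665H library, with exact 95% intervals for counting error. Hspa1a and Hspa1b lie above the other 8 genes, with Hspa1b at 4.98 and 4.55 in CD8 T, where Hsph1 lies at 0.81 and 0.11. Hspa1a in Treg is not drawn because WT held 0 UMIs.

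Other values moved with the mutant spleen libraries. The 7 neutrophil markers, none of them at 0 in any library, summed to 28.1 CPM in WT, 350 CPM for Y665H and 326 CPM for Y665F within the CD8 T class, and to 30.6, 410 and 406 CPM within B. The pair was lower in the Y665H neutrophils themselves (5.15 CPM) than in CD8 T of that library (18.9 CPM), and higher in the Y665F neutrophils (29.4 CPM) than in CD8 T of that library (24.6 CPM). The level in the Y665F neutrophils lay mostly in 6 cells. The part of these markers in the level of the pair was not tested. Hemoglobin markers in B were at 17 CPM in WT, 1002 CPM for Y665H and 9.13 CPM for Y665F, and GMP markers in B at 0.144, 0.976 and 377 CPM. The median mitochondrial share was 3.39% in WT, 3.12% in Y665H and 4.06% in Y665F. Immediate early genes, which also respond to handling, summed over all cells to 1857 CPM in WT, 2579 CPM for Y665H and 1519 CPM for Y665F. Within the B, CD8 T and NK classes Y665H lay closer to WT, with 2502, 2593 and 2371 CPM in B, 1220, 1386 and 1073 CPM in CD8 T, and 2371, 2163 and 1979 CPM in NK. Neutrophils held the most, 13827, 11594 and 2542 CPM, and numbered 86, 555 and 259 cells. Library, genotype and handling cannot be told apart with 1 library per genotype.

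Counts of genes above WT in the related groups, over all spleen cells, are read against the 30.4% and 49.6% of all genes. Among the heat shock factors and other inducible genes, 2 of the 10 with enough UMIs stood higher in Y665F than in WT, with a median log2 ratio of -0.16 beside -0.14 for all genes. In Y665H it was 8 of 11, with a median of 0.13 beside 0.00 for all genes. Bag3, an inducible partner of HSP70, was at 3.15 CPM in WT, 3.66 CPM for Y665H and 4.05 CPM for Y665F, and Hspb1, a small heat shock protein, at 0.539, 0.708 and 0.349 CPM. The TRiC subunits, which form the cytosolic chaperonin, had medians of 0.11 in Y665F, with 8 of 8 higher than WT, and 0.02 in Y665H, with 6 of 8 higher. The chaperones of the endoplasmic reticulum had medians of -0.08 in Y665F, with 3 of 14 higher, and 0.31 in Y665H, with 14 of 14 higher and Sdf2l1 at 0.61. None of these 3 groups, the co-chaperones or the other mitochondrial chaperones had a gene past 2-fold. Of the 13 immediate early genes, 4 stood higher in Y665F (median -0.26) and 13 in Y665H (median 0.49) over all cells. Within classes the Y665H count was 7 of 12 in B (median 0.06), 10 of 12 in CD8 T (0.25), 5 of 11 in NK (-0.11) and 2 of 13 in neutrophils (-0.28), and the part of cell makeup in the count over all cells was not tested. Over all cells, in Y665F 1 was over 2-fold higher (Ier3, log2 ratio 1.80), and in Y665H 4 were, with Dusp1 at 1.68 and Atf3 at 1.66.

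Bone marrow gave the first replicated comparison of the same alleles. Over all BM cells, Hspa1a was at 0.321 and 1.36 CPM in the WT libraries, 3.65 and 12.5 CPM for Y665H, and 2.86 and 6.21 CPM for Y665F. Hspa1b was at 0.449 and 1.40 CPM in WT, 2.54 and 12.1 CPM for Y665H, and 2.25 and 3.32 CPM for Y665F. Both mutants lay above both WT libraries for both genes, and the pair was higher in the mutant than in the WT library of the same replicate number. Genes whose Y665H libraries lay wholly above WT made up 4.75% of all genes, and 6 of the 10 did so. For Y665F 38.9% of all genes did, and 2 of the 10. The Y665H libraries themselves were far apart, at a mean of 8.10 ± 6.29 CPM for Hspa1a (SD, n = 2). By edgeR's quasi-likelihood test, Hspa1a differed by 3.35 on the log2 scale in Y665H (SE 1.17, adjusted p = 0.87), so this difference did not pass in the fit without a replicate term. No gene passed it for Y665H in edgeR, where 739 genes had an unadjusted p under 0.05.

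In the GMP class, marked by Mpo, Elane, Prtn3 and Ctsg, Hspa1a was at 0.421 and 2.31 CPM in WT, 5.92 and 22.9 CPM for Y665H, and 4.31 and 8.94 CPM for Y665F. Hspa1b differed there by 3.74 in Y665H (SE 1.0, unadjusted p = 0.0040, adjusted p = 0.877). The share of GMP cells with a UMI of the pair, thinned to 1000 UMIs, was 0.184% and 0.325% in WT, 0.902% and 2.96% in Y665H, and 0.606% and 1.20% in Y665F. The WT shares rested on 1 of 543 and 4 of 1232 cells, with intervals of 0.0047% to 1.02% and 0.0885% to 0.829%. The replicate 1 intervals, 0.451% to 1.61% in Y665H and 0.360% to 0.956% in Y665F, overlapped both. Y665F replicate 2 (0.897% to 1.57%) overlapped WT replicate 1. Only Y665H replicate 2 (2.14% to 3.99%) lay above both WT intervals. In the early erythroid class Hspa1a was at 0 and 0.635 CPM in WT, 2.55 and 7.60 CPM for Y665H, and 2.27 and 0 CPM for Y665F. Hspa1b there was at 0.534 and 1.45 CPM in WT, 2.03 and 10.6 CPM for Y665H, and 1.97 and 3.06 CPM for Y665F. In early erythroid cells Y665F thus overlapped WT for Hspa1a, while for Hspa1b both values lay above WT, 1 of them resting on 3 UMIs (3.06 CPM, counting interval 0.631 to 8.94) and not separable from WT by counting error. In the replicate 1 libraries Xist was at 696 CPM in WT, 233 CPM for Y665H and 832 CPM for Y665F. It was at 0.124 to 0.537 CPM in the replicate 2 libraries. The study's methods name male mice for the collection of tissues. Whether the genotypes were alike in sex within replicate 1 is not known from these levels. Sex by Xist differed between the replicate numbers. With replicate number as a block, which carries this difference and leaves 2 residual degrees of freedom, Hspa1a over all cells was at 3.40 in Y665H (adjusted p = 3.8e-18) and at 2.30 in Y665F (adjusted p = 4.7e-09), and the calls on Hspa1a and Hspa1b were then made in GMP and early erythroid cells as well. In that fit 0.161% of all genes were called for Y665H over all cells, 0.027% in GMP and 0.0736% in early erythroid cells, and 17.5%, 10.8% and 11.9% for Y665F. The result for the pair in BM therefore depends on whether that term is in the fit. It also changed with the filter on low counts and with the libraries kept, as given in the closing section. The labels do not say what a shared replicate number marks, so the adjusted p-values with the block are not taken as support.

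In Y665F marrow Hspd1 lay below WT, opposite to the pair, while in Y665H both Hspd1 and Hspe1 lay above WT over all cells, at log2 differences of 0.56 and 0.69 that did not pass (adjusted p = 0.87 for each). Over all BM cells, Hspd1 was at 1286 and 1219 CPM in WT, 1719 and 1385 CPM for Y665H, and 635 and 595 CPM for Y665F. In Y665F it fell by 1.19 on the log2 scale (SE 0.27, adjusted p = 0.0022), and was called, which here takes an adjusted p under 0.05 and a change over 1 on the log2 scale. Calls in either direction made up 16.4% of all genes, so 1 of 10 was not above the background. In the early erythroid class Hspd1 was at 1729 and 1661 CPM in WT, 2143 and 1702 CPM for Y665H, and 1041 and 744 CPM for Y665F, and fell by 1.03 in Y665F (SE 0.25, adjusted p = 0.0079), where 8.62% of all genes were called. In GMP it was at 884 and 957 CPM in WT and 577 and 555 CPM for Y665F, a log2 difference of -0.77 that did not pass (adjusted p = 0.17), with 9.82% of genes called. Without Y665F replicate 2, the adjusted p for Hspd1 was 0.0589 over all cells and 0.0958 in early erythroid cells. Its partner Hspe1 was at 976 and 937 CPM in WT, 1067 and 1510 CPM for Y665H, and 654 and 742 CPM for Y665F, and did not pass in Y665F (adjusted p = 0.089). Within classes the Y665F libraries overlapped WT for Hspe1, with means of 639 and 627 CPM for WT and Y665F in GMP, 1345 and 1274 CPM in early erythroid cells, and 388 and 466 CPM in HSC/MPP.

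Of the cytosolic genes over all BM cells, Hsp90ab1 was at 4550 and 4296 CPM in WT, 4623 and 3805 CPM for Y665H, and 3296 and 2505 CPM for Y665F. It fell by 0.77 in Y665F (SE 0.28, adjusted p = 0.039), which passed the adjusted p but not the fold. Dnajb1 was at 59.3 and 64.9 CPM in WT, 66.5 and 60.8 CPM for Y665H, and 43.2 and 47.8 CPM for Y665F, and fell by 0.63 (SE 0.21, adjusted p = 0.028). With the adjusted p alone, 32.0% of all genes passed and 3 of the 10 did. Neither gene passed the adjusted p without Y665F replicate 2 (adjusted p = 0.103 for Dnajb1 and 0.416 for Hsp90ab1) or without Y665F replicate 1 (0.106 and 0.0658). Dnajb1 did not pass it without WT replicate 2 or Y665H replicate 2, at 0.257 and 0.0514. Hsp90ab1 did not pass it without either Y665H library, at 0.0956 and 0.0974. Hspa8 was at 1288 and 1061 CPM in WT and 802 and 826 CPM for Y665F (-0.68, adjusted p = 0.051).

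Hsph1 and Hsp90aa1 did not follow this direction in Y665F. In GMP, Hsph1 was at 29.5 and 15.7 CPM in WT, 24.0 and 32.2 CPM for Y665H, and 32.2 and 41.6 CPM for Y665F, a log2 difference of 0.73 in Y665F (SE 0.27, adjusted p = 0.075). Hsp90aa1 was at 380 and 299 CPM in WT, 313 and 487 CPM for Y665H, and 494 and 732 CPM for Y665F, a log2 difference of 0.82 (SE 0.38, adjusted p = 0.15). Dnaja1 was at 294 and 342 CPM in WT, 363 and 421 CPM for Y665H, and 314 and 326 CPM for Y665F over all cells, with Y665F between the WT libraries. In HSC/MPP, which held only 55 to 377 cells per library, 7 of the 10 genes could be tested and none passed in either mutant. That class had 3 calls for Y665F among its 2449 genes, 0.122%.

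**Figure D3:**
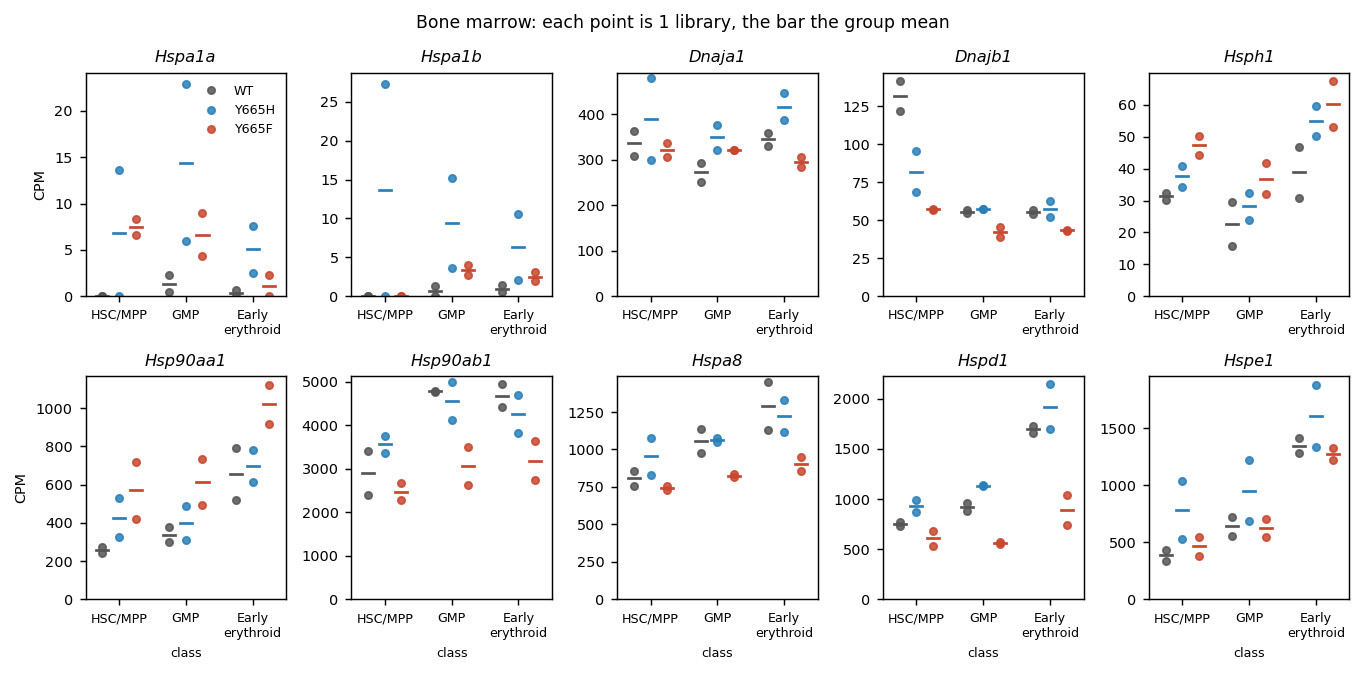
Level of each of the 10 genes (CPM) in the marker-gated BM classes, each point 1 library and each bar the mean of 2. Hspd1 is lowest in both Y665F libraries of GMP (577 and 555 CPM) and early erythroid cells (1041 and 744 CPM), while Hspa1a in GMP is higher in both mutants than in WT.

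The makeup of the Y665F marrow differed, which touches the sums over all cells. The neutrophil markers summed to 3469 and 1297 CPM for Y665F and to 38.9 to 220 CPM in the other 4 libraries, and the early erythroid markers to 759 and 494 CPM against 3965 to 5778 CPM. Within the early erythroid class its own markers were at 3666 and 2650 CPM for Y665F and at 7657 to 9987 CPM elsewhere. Within GMP the monocyte-macrophage markers were at 365 and 281 CPM for Y665F and at 746 to 988 CPM elsewhere, and the neutrophil markers at 205 and 196 CPM against 20.3 to 68.7 CPM. Sums over all cells do not separate fewer cells of a type from less RNA per cell, but gated cells can be counted. Early erythroid cells were 1014 of 15656 and 235 of 15910 for Y665F. They were 930 of 4093 and 3275 of 10296 in WT, and 3983 of 9561 and 4008 of 10957 for Y665H. Their medians were 5633 and 3659 UMIs per cell for Y665F and 2181.5 to 5803.5 elsewhere. The part of these differences in the results for Y665F was not tested.

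In Y665F marrow the counts for the other gene groups are read against the share of all genes called, which was 16.4% over all cells, 9.82% in GMP and 8.62% in early erythroid cells. Over all cells, 1 of 8 TRiC subunits was called lower, Cct7 (-1.35, adjusted p = 0.00056), and 4 passed the adjusted p alone, as 32.0% of all genes did. Cct7 was also called lower in GMP (-1.08) and early erythroid cells (-1.03). Of 17 co-chaperones 1 was called lower, Ahsa1, which activates the HSP90 ATPase (-1.11, adjusted p = 0.0015). Of 7 other mitochondrial genes 2 were called lower, Clpp, a protease (-1.54), and Grpel1, the exchange factor of mitochondrial HSP70 (-1.38), and both were called in GMP (-1.20 and -1.22) and in early erythroid cells (-1.31 and -1.20). Of 12 inducible genes 1 was called higher, Serpinh1, a collagen chaperone (1.84, adjusted p = 0.011). No endoplasmic reticulum chaperone was called over all cells, and Pdia6 was called lower in GMP (-1.16). Of 13 immediate early genes Btg2 (1.60) and Jund (1.21) were called higher and Ier2 (-1.54) lower, and in GMP Egr1 was called higher as well (1.78). In early erythroid cells Jund (1.02) and Ier2 (-1.37) were called. The median over the 10 genes of interest was -0.39 for Y665F and 0.55 for Y665H over all cells, beside 0.03 and -0.01 for all genes tested. For Y665H no gene of any of these groups was called.

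In lymph node the pair was near its detection limit and did not stand higher in the mutants. Over all LN cells, the pair was at 4.17 and 12.3 CPM in WT, 3.95, 4.85 and 0 CPM in het, and 1.69 and 3.72 CPM in homo. The het library at 0 was het 3, where a count of 0 allows up to 1.34 CPM. Both homo libraries lay below both WT libraries, and the het libraries overlapped WT only narrowly. The homo values rested on 4 and 20 UMIs of the pair, beside 26 and 133 in WT, and their order is a description only. For Hspa1a alone homo overlapped WT, at 0.422 to 2.05 CPM beside 1.44 to 4.89 CPM. Hspa1a and Hspa1b had too few UMIs to be tested within LN classes. Over all cells the log2 difference of Hspa1a in homo was -1.06 (SE 0.82, unadjusted p = 0.22), and it was 0.13 without WT replicate 2.

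The other genes were mostly lower in homo than in WT, and few differences passed. Dnaja1 in CD4 T was at 373 and 544 CPM in WT, 372, 332 and 144 CPM in het, and 271 and 225 CPM in homo. It fell by 0.97 in homo (SE 0.22, adjusted p = 0.0216), which passed the adjusted p, as 0.557% of all genes did, but not the fold. The adjusted p was 0.232 without WT replicate 2, 0.223 without homo replicate 1 and 0.778 without homo replicate 2. Hsph1 in CD4 T was at 147 and 155 CPM in WT, 131, 124 and 54.0 CPM in het, and 41.6 and 72.6 CPM in homo, a log2 difference of -1.07 (SE 0.28, adjusted p = 0.054). In CD4 T 0.366% of all genes were called in homo, and none of the 10 genes was. In CD8 T, Treg, B and over all cells 1.26%, 0.333%, 0% and 2.41% of all genes were called, and none of the 10. In B, edgeR called no gene in homo while 718 had an unadjusted p under 0.05, with Hsph1 at -0.99 (SE 0.31, adjusted p = 0.42). In het 0.444% were called in CD8 T, 0.175% in CD4 T, 0.133% in Treg, 0.355% in B and 0.623% over all cells, again none of the 10.

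Both homo libraries lay below both WT libraries for 6 of 10 genes in CD8 T, where 24.2% of all genes did. The counts were 5 of 9 in CD4 T (23% of all genes), 6 of 9 in Treg (21.7%, with 33 to 208 cells per library), 8 of 10 in B (22%) and 7 of 10 over all cells (35.3%). The count in B includes Hspa1a, and the count over all cells includes Hspa1b. In B the homo libraries held only 1 and 0 UMIs of the pair, under the floor of 3 UMIs. Hspa1a in B therefore could not be placed below WT. The counts of genes with all 3 het libraries below both WT libraries were 1 of 10 in CD8 T (16.4% of all genes), 2 of 9 in CD4 T (14.6%), 2 of 9 in Treg (11.7%), 5 of 10 in B (11.1%) and 1 of 10 over all cells (26.4%). The count for het in B includes Hspa1a and Hspa1b, of which the het libraries together held 7, 3 and 0 UMIs. Hsp90aa1, the inducible HSP90, was at 406 and 402 CPM in WT, 447, 390 and 259 CPM in het, and 311 and 316 CPM in homo in CD8 T. Hsp90ab1 was at 2855 and 2801 CPM in WT, 3196, 2435 and 2188 CPM in het, and 2337 and 2055 CPM in homo in B. Hspd1 was at 263 and 219 CPM in WT and 195 and 197 CPM in homo in CD8 T, and Hspe1 at 410 and 322 CPM in WT and 253 and 308 CPM in homo. Hspa8 was at 1594 and 1940 CPM in WT and 1382 and 1143 CPM in homo in B. Dnajb1 overlapped, at 118 and 179 CPM in WT and 167 and 140 CPM in homo in CD4 T. The shallow library het 3 had the lowest mean deviation over the CD8 T, CD4 T and B classes for each gene except Hspd1, where homo 1 did, with homo 1 level with it for Hspa1a.

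**Figure D4:**
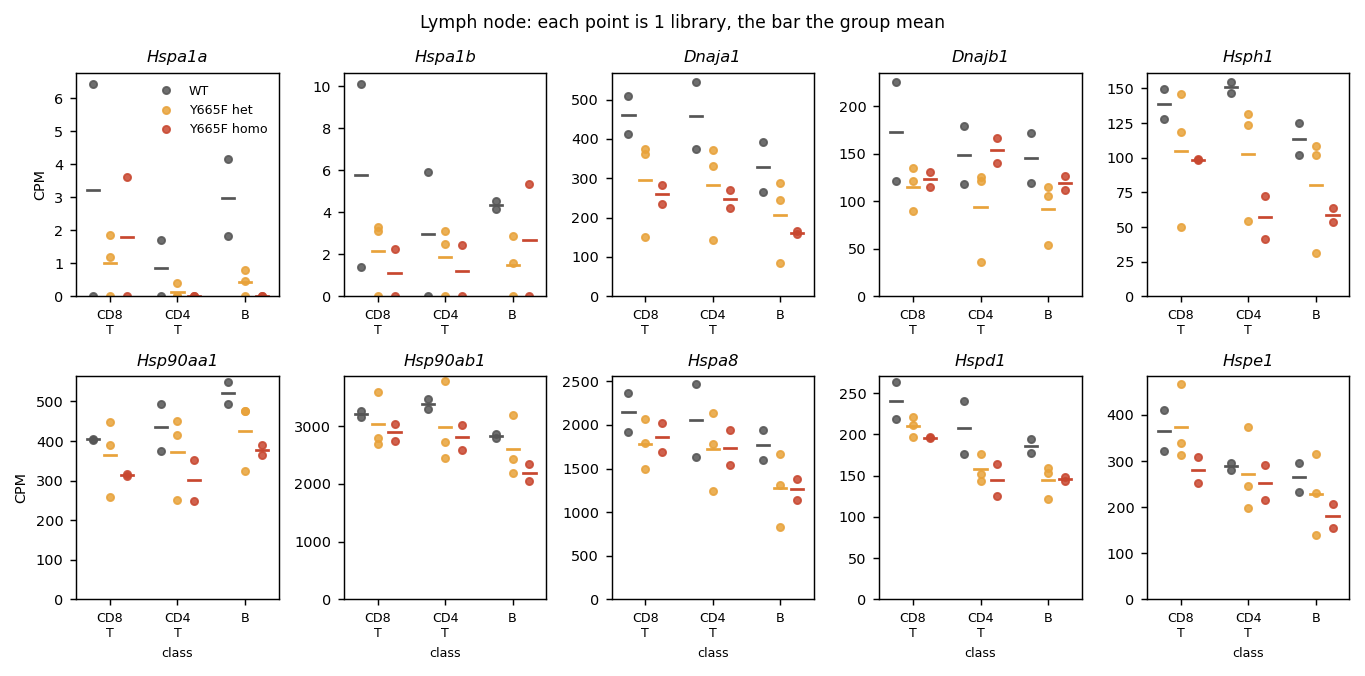
Level of each of the 10 genes (CPM) in the LN classes CD8 T, CD4 T and B, each point 1 library and each bar the group mean (2 WT, 3 het, 2 homo). Dnaja1 lies lower in both homo libraries than in both WT libraries in each class, and the lowest het point is the shallow library het 3 (144 CPM in CD4 T).

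Of the other groups in LN, no gene was called in homo over all cells. With the adjusted p alone, which 5.38% of all genes passed, the co-chaperone Hspbp1 was higher in homo (0.56, adjusted p = 0.034). Of 12 immediate early genes tested, Ier2 was higher (0.55, adjusted p = 0.014) and Nr4a1 lower (-0.80, adjusted p = 0.015), with a median of 0.14. The TRiC subunits lay close to 0, with Tcp1 at -0.22 and Cct7 at 0.17. Bag3 was at 0.87 (adjusted p = 0.081), opposite in sign to the 10 genes, whose median was -0.35 beside 0.00 for all genes tested.

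Whether a difference was in all classes or in some was tested as the difference between classes within libraries. In LN, Hspa1a and Hspa1b had too few UMIs, and 48 such tests of the other 8 genes compared CD4 T, Treg and B with CD8 T. Of these, 5 had an unadjusted p under 0.05 and none an adjusted p under 0.05. The smallest adjusted p was 0.276, for Hsp90aa1 in het, which was lower by 0.25 in B relative to CD8 T (log2 -0.25, SE 0.10). In CD4 T the change of Hsph1 in homo was further down than in CD8 T by 0.65 (log2 -0.65, SE 0.31, adjusted p = 0.82). In BM, 40 tests of all 10 genes compared HSC/MPP and early erythroid cells with GMP, with 2 below an unadjusted p of 0.05 and none after adjustment. The smallest adjusted p was 0.558, for Hspd1 in Y665F (HSC/MPP minus GMP 0.85, SE 0.40), and Hsp90ab1 had the same size (0.85, SE 0.43). Class differences were thus not detected in LN or BM, at standard errors that leave room for differences as large as some of the changes themselves. Of all genes, 0.238% in het and 0.151% in homo passed the adjusted p for CD4 T, 0.0864% and 0.173% for Treg, and 1.73% and 0.702% for B. In BM 0% in Y665H and 0.0168% in Y665F passed for HSC/MPP, and 0.0084% and 0.143% for early erythroid cells.

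The spread of each gene was also divided between library and class. Genotype had no term of its own, so differences between genotypes are part of the library share. In spleen, over 3 libraries and 4 T and B classes, the library took 87.0% of the sum of squares of log2(CPM + 1) for Hspa1a and 88.4% for Hspa1b, and the class 9.96% and 9.39%. For Hspe1 the shares were the other way, 30.5% for library and 68.1% for class. Since the genes were chosen for standing higher in Y665F than in WT spleen, a large library share there was set in part by that choice and is a description only. In BM, the library took 63.1% for Hspa1a and 73.5% for Hspa1b, with Y665H replicate 2 highest in 3 of 3 classes for both. In HSC/MPP that library held only 3 UMIs of the pair in 82 cells, no more than the floor. Its rank there, and the part of that class in these shares, rest on those UMIs. In LN the library took 82.2% for Dnaja1, 80.8% for Dnajb1, 79.9% for Hsph1 and 75.1% for Hsp90aa1. WT replicate 2 was the highest library in 3 of 3 LN classes for Dnaja1, Dnajb1, Hsph1 and Hspa8, and its mean deviation for Dnaja1 was 0.83 on the log2 scale where that of WT replicate 1 was 0.36. Libraries of the same genotype therefore also differed as a whole, across their classes.

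**Figure D5:**
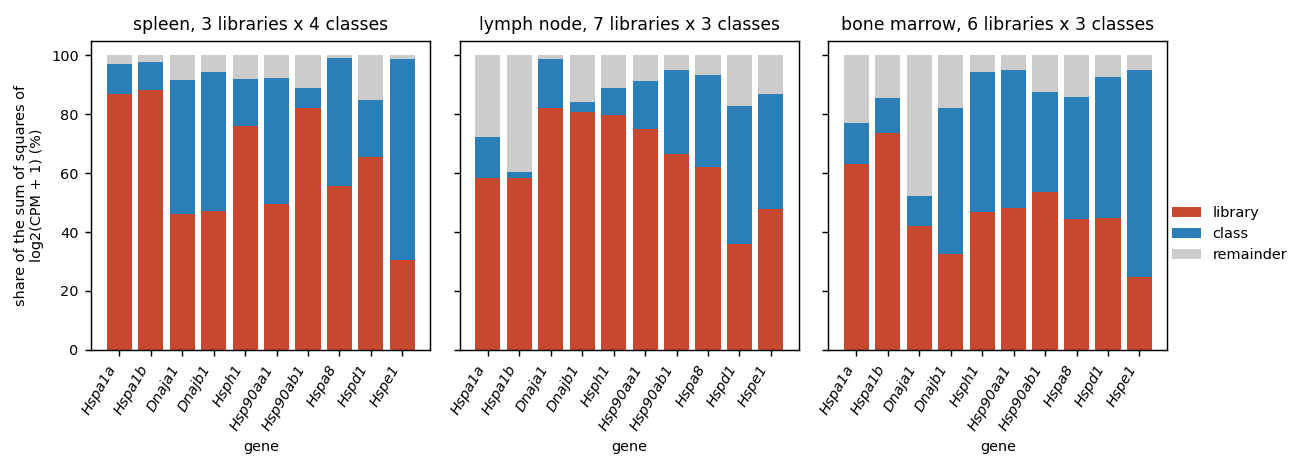
Share of the sum of squares of log2(CPM + 1) of each gene taken by library, by class and by the remainder (%), in spleen (3 libraries by 4 classes), LN (7 by 3) and BM (6 by 3). Library takes 87.0% and 88.4% for Hspa1a and Hspa1b in spleen, and class takes 68.1% for Hspe1. The library share includes differences between genotypes.

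The genes whose levels followed the pair most closely differed between tissues. By Pearson's r of log2(CPM + 1) with the mean of Hspa1a and Hspa1b over library-by-class sums, the 5 nearest genes outside the 10 were Tcp1 (0.69), Dynll1 (0.64), Mrpl11 (0.62), Prps1l3 (0.60) and Ahsa1 (0.58) over 26 sums in LN. In BM they were Polr2g (0.81), Snrpb2 (0.81), Tmem256 (0.78), Smim11 (0.74) and Bet1 (0.73) over 18 sums. In spleen they were Mfsd1 (0.69), Ywhae (0.64), Ciao2a (0.64), Tfrc (0.63) and F13a1 (0.62) over 21 sums. Classes of a library share its depth and preparation, so these are descriptions. Of the 10 genes themselves, Dnaja1 and Dnajb1 were at 0.57 in LN, and in spleen Hsp90aa1 was nearest at 0.49 and Dnaja1 was at -0.03.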

How the data were processed

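Expression libraries of 16 samples were analysed (7 LN, 3 spleen, 6 BM), made with a 10x Genomics Chromium kit, for which the labels name a 3′ version and the methods a 5′ version. The deposited counts are UMI counts per gene and cell, made by the authors with Cell Ranger (5.0.0 for LN, 6.0.0 for spleen and BM per the file headers) on GRCm38 and not normalized. T-cell receptor tables were not used here. The genes, lists and thresholds were chosen with earlier results of these data known, and gate thresholds were set after marker levels were seen.

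A barcode was kept from 200 detected genes upward if mitochondrial transcripts held no more than 10% of its UMIs. Simulated doublets were used to score each library, and the top 0.8% per 1000 barcodes were removed. Cells were gated by fixed markers, and BM classes were used where every library held at least 50 cells. Sums of UMIs over each class of each library were compared by edgeR 4.0.16 (glmQLFTest, TMM, filterByExpr, Benjamini-Hochberg over all genes), with all genotypes of a tissue in 1 fit. Differences between classes were tested as class-by-genotype terms with library as a block. Spleen ratios have exact conditional 95% intervals and CPM exact Poisson intervals, shares exact binomial intervals, all for counting error only. Floors are 3 UMIs. Spleen ratios of groups cover genes with at least 10 UMIs, and log values use CPM + 1. Fits were tested on simulated data. Named were all 10 genes, and in the other lists called genes or otherwise those furthest from 0. Alternatives were DESeq2 1.42.0, its size factors, no filter, other cell filters, doublets kept, a replicate block, no fold threshold, and each replicate left out.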

Additional observations from a re-analysis of the deposited data

Results flagged for a closer look

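For 5 of the 10 genes, both Y665F libraries lay below both WT libraries in BM, as 25.9% of all genes did, while the gene stood above WT in the Y665F spleen library. The spleen side was fixed by the choice of the genes and is a description. The values are log2 ratios of mean CPM, Y665F over WT, over all kept cells. Dnajb1 was at 0.22 in spleen and -0.45 in BM, Hsp90ab1 at 0.22 and -0.61, Hspa8 at 0.46 and -0.53, and Hspe1 at 0.26 and -0.45. The BM difference of Hspe1 was seen over all cells only: its Y665F libraries overlapped WT in GMP and early erythroid cells, and its mean was higher than WT in HSC/MPP (466 against 388 CPM). The other 4 genes lay wholly below WT in GMP and early erythroid cells as well, where 24.6% and 26.2% of all genes did. Hspd1 was at 0.30 in spleen, -1.03 in BM and -0.23 in LN, where het and homo libraries were pooled. The difference between tissues was not tested. Spleen has 1 library per genotype, its cells were selected for CD45, and its transcripts were read at another end, so tissue and library preparation cannot be told apart. Hspa1a and Hspa1b were not among these 5, since they stood above WT in spleen and BM.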

How the results depend on the processing

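The main counts of calls within classes, at an adjusted p under 0.05 and a log2 change over 1 by edgeR, were 0 for LN homo, 0 for LN het, 1 for BM Y665F and 0 for BM Y665H. For LN homo the count was 1 with DESeq2 size factors, 2 without a filter on low counts, 1 with doublets kept, 1 with a replicate block, 1 without the fold threshold, and 0 to 2 when 1 library was left out (2 without WT replicate 1, 1 without het replicate 3). For BM Y665F it was 4 without the filter, 5 with the replicate block and 0 to 4 when 1 library was left out (0 without Y665F replicate 2, 4 without Y665F replicate 1). For BM Y665H it was 4 without the filter, 4 with the block and 0 to 4 when 1 library was left out (4 without Y665H replicate 1, 3 without WT replicate 2). Of all genes, the fit without the filter called 0.0651% to 6.98% in the 3 BM classes for Y665F and 0% to 0.0618% for Y665H, and the fit with the block 0.939% to 11.9% and 0.027% to 0.0817%. The counts under the LN alternatives, and those with 1 library left out, are given without a share of all genes. They are descriptions only. The cause of the differences between settings was not tested. The labels do not say what a shared replicate number marks, and in BM it goes with sex by Xist. Correlations of same-numbered BM libraries were 0.31 for WT with Y665H, 0.03 for WT with Y665F and 0.30 for Y665H with Y665F, and lay between -0.10 and 0.07 in LN. Without sex genes the BM values were 0.25, -0.07 and 0.20, in the same order. With the replicate block, Hspa1a over all BM cells was at 3.40 in Y665H (adjusted p = 3.8e-18) and 2.30 in Y665F (adjusted p = 4.7e-09), and Hspa1b at 3.02 and 1.56. The medians of the 8 genes other than the pair, over all libraries and as the range with 1 left out, were -0.32 (-0.73 to -0.24) in LN CD4 T homo and -0.49 (-1.83 to -0.40) in LN Treg homo. For BM Y665F they were -0.62 (-0.77 to -0.44) over all cells, -0.03 (-0.081 to 0.35, and 0.23 without the filter) in HSC/MPP, -0.26 (-0.53 to 0.092) in GMP and -0.41 (-0.61 to -0.30) in early erythroid cells. For BM Y665H they were 0.51 (0.35 to 0.58) over all cells, 0.30 (0.12 to 0.61, and 0.15 at 5% mitochondrial UMIs) in HSC/MPP and 0.55 (0.28 to 0.70) in GMP. Hspa1a in LN homo over all cells turned from -1.06 to 0.13 without WT replicate 2 (range -2.88 to 0.13). Dnaja1 in LN CD4 T homo did not pass the adjusted p with DESeq2 (adjusted p = 0.99994) or at 500 genes per cell (adjusted p = 0.191). Leaving out the shallow libraries het 3 and homo 1, an alternative chosen after seeing the data, left the LN counts at 0. Of the other values, 156 kept their direction and call, 16 lost the call and 6 gained it. All 48 spleen alternatives stayed within the 95% interval of the main ratio, and moved by at most 0.27 on the log2 scale. Over all alternatives for the main results, these 48 included, 335 were scored as the same and 40 as moved. In the main fit the pair had too few UMIs in LN to be tested within classes. Hspa1b in CD8 T could be tested when WT replicate 1 was left out.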
